A study of Mus musculus with 20 samples.

Results

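Liver endothelial cells were followed through 35 marker genes, 17 that mark the sinusoidal endothelium of the liver and 18 that mark endothelium in general. A member was measured by the probe sets that the array annotation assigns to that gene alone, and the one that was brightest on average stood for the gene. All 35 members had such a probe set among 18193 named genes, and 34 of them passed the filter on low values with 11728 genes in all. The Wnt ligand gene Wnt9b did not pass, with a mean of 6.39 on the deposited log2 scale against a filter level of 6.51. On that scale the means of the tested members ran from 6.52 for Tie1 to 10.59 for Clec4g. The filter used the mean over all mice, not the level in 1 diet group.

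The arrays measured RNA of whole livers from 20 male C57BL/6J mice, an inbred strain, with 1 array per mouse, and the labels name no altered gene. All mice were bought at 3 weeks of age and had 1 week of acclimation on a diet with 10 kcal% from fat. The mice were 8 weeks old, and both groups were fed for 4 weeks on a high-fat diet that gave 45 kcal% from fat. The HFD group (10 mice) ate that diet alone, and the MSXH group (10 mice) ate the same diet with 0.05% of the maple syrup extract called MSXH. All mice were fasted for 16 h before livers were taken on day 30. The labels do not say how mice were caged, and the p-values measure the spread between these mice.

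Sinusoidal endothelial cells line the capillaries of the liver lobule, have open pores and no basement membrane, and take up waste molecules from blood through scavenger receptors. Cells near the central vein secrete Wnt ligands and R-spondin, which set the zonation of hepatocytes, and sinusoidal cells also secrete bone morphogenetic proteins that control iron metabolism in hepatocytes. General endothelial genes encode receptors for vascular endothelial growth factor (VEGF) and angiopoietins, junction proteins and surface antigens found in most vessels.

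The deposited values of a gene differed very little between arrays. The median SD of a tested gene over the 20 mice was 14.8 millionths of a deposited log2 unit, and that of the members was 19.4 millionths. A value of a mouse is therefore given below as its deviation from the 20-mouse mean of the gene, in millionths of a deposited log2 unit, and cannot be read as a fold change. A difference between diets is given as Hedges' g, the mean of the MSXH mice minus that of the HFD mice in units of the SD within groups, corrected for sample size, with a 95% interval. The medians of the arrays spanned 176 millionths, more than the SD of most members. Only Lyve1 and Nrp1 had an SD above that span. The array medians ran from -55.5 through a median of -25.2 to 115 millionths in HFD and from -61.6 through -32.4 to 73.7 millionths in MSXH, so the groups overlapped. The hepatocyte gene Alb stood at a mean of 14.74 in the liver RNA, close to the highest deposited value of 14.96.

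Promoter sequences from RefSeq (build GRCm38.p6) were matched for 19 of the 35 members. The 250 bases before the gene start are shown for Nrp1 and Kdr, the preset pair with the highest correlation, for Eng, which took part in the highest correlation of all member pairs, and for Stab2, a defining sinusoidal gene. Capitals mark AGGAAG or its reverse complement, a sequence that holds the core letters of ETS family binding sites. The Nrp1 window lies at chr8:128358823-128359072 on the plus strand and the Kdr window at chr5:75978456-75978705 on the minus strand. The Eng window lies at chr2:32646345-32646594 on the plus strand and the Stab2 window at chr10:87007943-87008192 on the minus strand.
Nrp1: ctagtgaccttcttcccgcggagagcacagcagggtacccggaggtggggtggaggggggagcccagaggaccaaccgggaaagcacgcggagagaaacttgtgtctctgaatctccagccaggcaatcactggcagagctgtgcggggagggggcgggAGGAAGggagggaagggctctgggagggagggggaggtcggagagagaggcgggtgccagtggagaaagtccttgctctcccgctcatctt
Kdr: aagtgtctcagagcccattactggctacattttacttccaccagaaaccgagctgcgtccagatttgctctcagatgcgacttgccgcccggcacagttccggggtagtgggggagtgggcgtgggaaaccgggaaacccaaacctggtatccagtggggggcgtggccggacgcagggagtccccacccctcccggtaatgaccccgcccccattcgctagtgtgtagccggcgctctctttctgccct
Eng: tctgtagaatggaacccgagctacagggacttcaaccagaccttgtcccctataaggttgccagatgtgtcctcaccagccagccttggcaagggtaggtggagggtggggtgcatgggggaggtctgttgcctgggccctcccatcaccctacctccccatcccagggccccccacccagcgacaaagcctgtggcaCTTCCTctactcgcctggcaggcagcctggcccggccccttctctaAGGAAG
Stab2: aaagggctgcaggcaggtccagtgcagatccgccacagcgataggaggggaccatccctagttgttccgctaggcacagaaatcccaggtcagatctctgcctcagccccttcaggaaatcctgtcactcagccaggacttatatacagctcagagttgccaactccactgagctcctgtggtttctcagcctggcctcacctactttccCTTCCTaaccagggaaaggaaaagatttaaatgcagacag
AGGAAG was found in 1 place in the Nrp1 window, in 2 places in that of Eng, 1 of them ending next to the gene start, in 1 place in that of Stab2 and in none in that of Kdr.

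Over the 19 members with a promoter, AGGAAG was present on either strand in 12, or 63.2%, against 32.3% of 27025 genes with windows of the same length. The 12 members were Aqp1, Clec4g, Egfl7, Emcn, Eng, Flt1, Mrc1, Nrp1, Stab1, Stab2, Tie1 and Ushbp1. Another 5 sequences were searched in the same way. CACCC, the core of Krüppel-like factor sites, was present in 12 of 19 members and 54.5% of genes. ACAAAG, a SOX family sequence, was present in 4 of 19 members and 18.6% of genes. The longer ETS sequence CCGGAAG was in 0 of 19 members and 7.83% of genes. The GATA family sequences AGATAA and TGATAA were in 0 and 2 of 19 members and in 11.4% and 9.21% of genes. AGGAAG shares its GGAAG letters with CCGGAAG. These matches describe letters in a window and were chosen with the counts known.

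No member differed between the diets after adjustment. In limma with Benjamini-Hochberg adjustment, 0 of 34 members reached an adjusted p of 0.05, against a background of 0% of 11728 genes called, and the smallest adjusted p of a member was 0.9998. At an unadjusted p under 0.05 there were 2 of 34 members, Ptprb and Gata4, against 3.62% of all genes tested (425 genes). In MSXH, 27 of 34 members had a higher mean than in HFD, against 49.4% of all genes, and the median g of the members was 0.288 against -0.00692 over all genes. These counts depend on scaling. With array medians aligned, 32 of 34 members and 91.1% of all genes had the higher mean in MSXH. After quantile normalization 21 of 34 members and 48.8% of all genes did, counting Clec4g, whose g rounded to 0.0. All 35 members had groups that overlapped. The same count over all genes tested is not given here, so the overlap is not read as particular to the members. In RNA of whole liver, fewer cells of a type and less RNA per cell cannot be told apart.

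**Figure D1:**
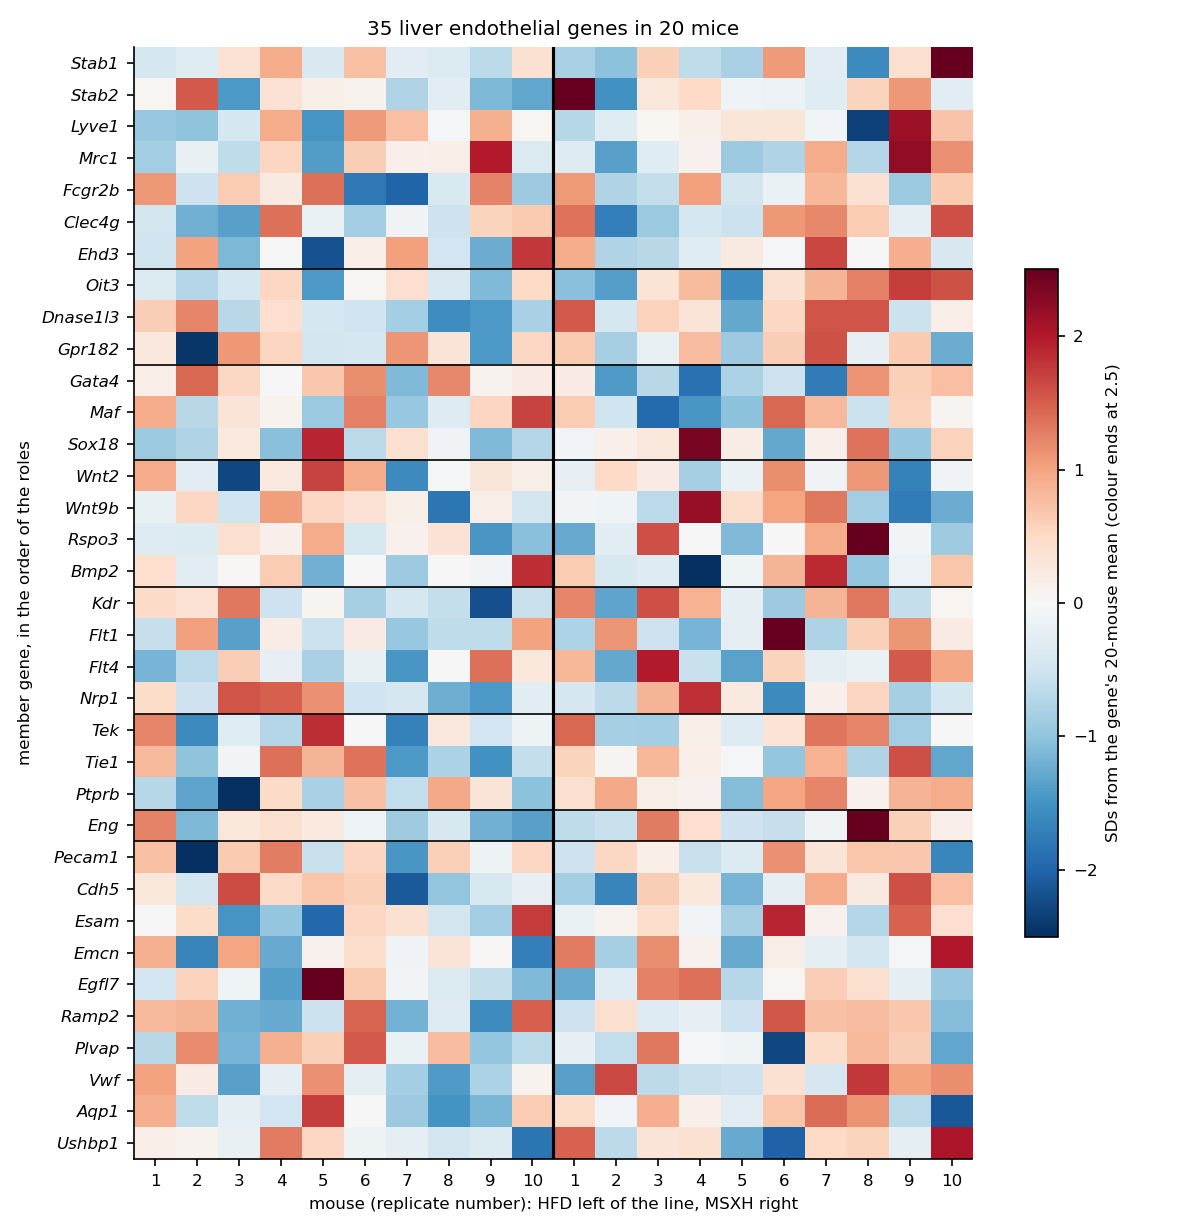
Deviation of each of the 35 members from its 20-mouse mean in SDs of the gene (colour), by mouse; HFD mice are left of the vertical line and MSXH mice right of it, and horizontal lines separate roles. None of the 35 members separates the groups, and the same count over all genes tested is not given here.

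Of the scavenger receptors and endocytosis genes, 6 of 7 had a higher mean in MSXH, with a median g of 0.196 and none at an unadjusted p under 0.05. That count was 7 of 7 with array medians aligned and 3 of 7 after quantile normalization, where g of Clec4g rounded to 0.0 and was not counted as higher. Stab2, the hyaluronan clearance receptor and a defining sinusoidal gene, ran from -87.9 through a median of -6.42 to 94.2 millionths in HFD and from -92.9 through 5.97 to 157 millionths in MSXH. The highest and the lowest mouse were both MSXH mice, and the groups overlapped over nearly the whole range. The difference had g 0.515 (95% interval -0.377 to 1.41, limma adjusted p = 0.9998), and 6 of 10 MSXH mice were above the HFD median.

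Lyve1, a hyaluronan receptor of sinusoidal and lymphatic endothelium, ran from -2642 through 17.03 to 1914 millionths in HFD and from -4185 through 153 to 3810 millionths in MSXH. Mice differed far more than diets did: the MSXH mice held both ends of the range, and g was 0.0387 (95% interval -0.838 to 0.915, limma adjusted p = 0.9998). Its SD of 1786 millionths was above that of 98% of the genes tested. The second Lyve1 probe set followed the first over the 20 mice with r = 0.967 (rho = 0.953), so this spread was seen by both.

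Clec4g, a C-type lectin of sinusoidal cells, ran from -11.8 through -2.69 to 12.0 millionths in HFD and from -14.9 through 1.81 to 14.0 millionths in MSXH. Its groups overlapped throughout, with g 0.393 (95% interval -0.493 to 1.28, limma adjusted p = 0.9998), and g was -0.256 for the mean of its probe sets. The other Clec4g probe set lay below the filter level, with a mean of 6.25, g -0.431 and r = -0.161 with the first. The mannose receptor gene Mrc1 (g 0.00330) and the stabilin gene Stab1 (g -0.00101) had nearly equal means in the deposited values. After quantile normalization g was 0.560 for Mrc1 and -0.324 for Stab1. With array medians aligned it was 0.340 for Mrc1 and 0.299 for Stab1. The inhibitory Fc receptor gene Fcgr2b had g 0.196, which was 0.801 for its probe set of largest SD and -0.428 after quantile normalization. Ehd3, which acts in endocytic recycling, had g 0.295, and -0.138 after quantile normalization. The 95% interval of each of these 4 genes included 0.

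Dnase1l3, a secreted DNase made by sinusoidal cells, ran from -10.5 through -3.99 to 8.26 millionths in HFD and from -8.59 through 2.85 to 10.6 millionths in MSXH. In 9 of 10 MSXH mice the value was above the HFD median, while the ranges overlapped. The difference had g 0.822 (95% interval -0.0947 to 1.74), an unadjusted p of 0.0721 and an adjusted p of 0.9998 in limma. A further Dnase1l3 probe set above the filter level had g 0.617 and followed the first with r = 0.475. After quantile normalization g fell to 0.126. Oit3, which marks sinusoidal cells, ran from -8.07 through -1.98 to 2.87 millionths in HFD and from -8.67 through 3.29 to 9.62 millionths in MSXH. The upper end of Oit3 was held by MSXH mice, and so was the lowest value, with g 0.581 (95% interval -0.316 to 1.48, limma adjusted p = 0.9998). The receptor gene Gpr182 had g 0.170.

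Of the 3 transcription factor genes, 1 had a higher mean in MSXH, and 2 did with array medians aligned and after quantile normalization. Gata4, which specifies sinusoidal identity, ran from -11.3 through 3.68 to 14.7 millionths in HFD and from -19.3 through -6.17 to 11.5 millionths in MSXH. The values of Gata4 were lower in MSXH on average, but 3 of 10 MSXH mice were above the HFD median. The difference had g -0.909 (95% interval -1.83 to 0.0164), an unadjusted p of 0.0460 and an adjusted p of 0.9998 in limma, and g was 0.171 with array medians aligned and 0.775 after quantile normalization, the opposite sign. Maf ran from -85.6 through 18.3 to 151 millionths in HFD and from -173 through -19.3 to 128 millionths in MSXH. Its groups overlapped over most of their range (g -0.369, 95% interval -1.25 to 0.516, limma adjusted p = 0.9998), and 3 of its other 4 probe sets above the filter level had a positive g, up to 1.01, with g 0.224 for the mean of all Maf probe sets. Sox18, a SOX factor of endothelium in general, had g 0.533, with 8 of 10 MSXH mice above the HFD median.

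**Figure D2:**
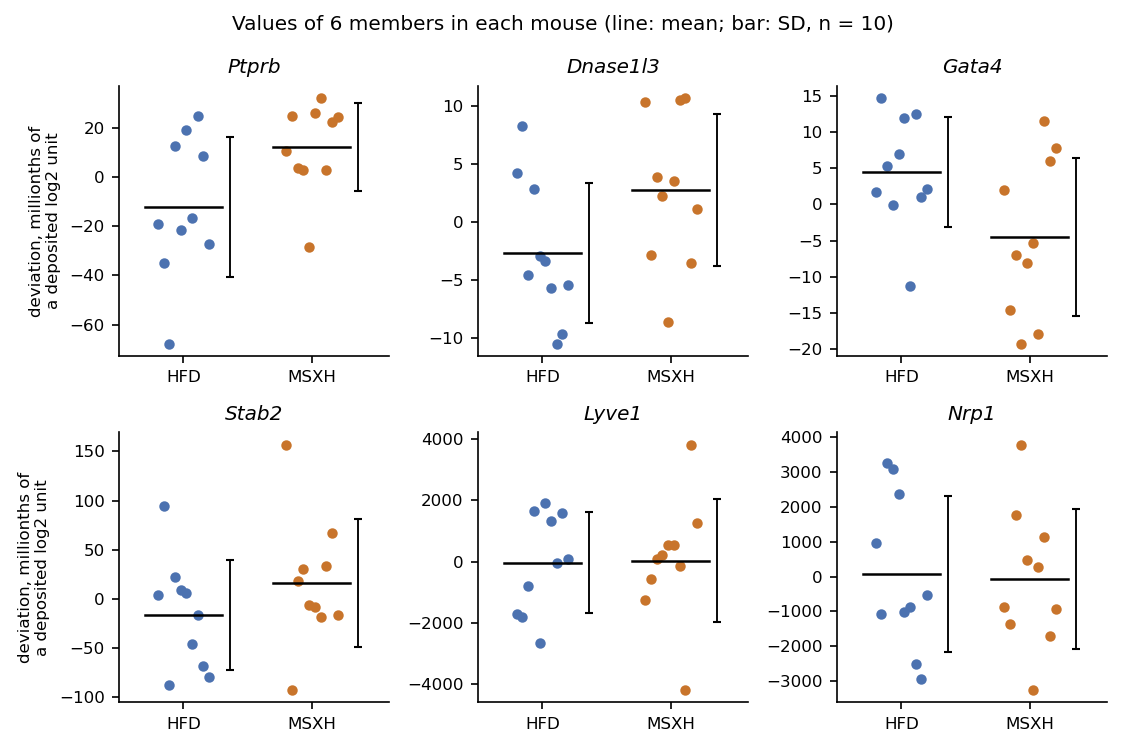
Deviation from the 20-mouse mean in millionths of a deposited log2 unit for Ptprb, Dnase1l3, Gata4, Stab2, Lyve1 and Nrp1; points are mice, lines are means and bars are SDs (10 mice per diet). Each panel has its own axis, and the diets overlap in all 6 genes.

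Of the 3 secreted ligand genes tested, 1 had a higher mean in MSXH, and 3 did with array medians aligned. Wnt2, a Wnt of central vein endothelium, ran from -301 through 26.3 to 223 millionths in HFD and from -223 through -12.0 to 155 millionths in MSXH, so that the HFD mice spanned the whole range of the MSXH mice. Its g was -0.0184 (95% interval -0.895 to 0.858, limma adjusted p = 0.9998). Rspo3, the R-spondin of the same cells, ran from -57.9 through -4.13 to 36.4 millionths in HFD and from -49.9 through -0.999 to 106 millionths in MSXH. MSXH replicates 8, 3 and 7 lay above the highest HFD value for Rspo3, at 106, 63.7 and 36.7 millionths, and the other MSXH mice lay within the HFD range (g 0.314, 95% interval -0.569 to 1.196, limma adjusted p = 0.9998). Without MSXH replicate 8, g of Rspo3 was 0.0627. Bmp2, which drives hepatic hepcidin, ran from -83.3 through -0.819 to 128 millionths in HFD and from -174 through -9.12 to 129 millionths in MSXH. The lowest Bmp2 value was that of an MSXH mouse and the groups overlapped, with g -0.0804 (95% interval -0.957 to 0.797, limma adjusted p = 0.9998). Wnt9b, below the filter level and not tested, had g 0.0377.

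The genes of hepatocytes that these ligands act on were read from a separate list. Of 17 tested targets of Wnt, R-spondin and bone morphogenetic protein signals, 7 had a higher mean in MSXH, the median g was -0.0644 and 0 passed adjustment, with 1 at an unadjusted p under 0.05. That gene was Oat, ornithine aminotransferase of hepatocytes around the central vein, with g -1.38 and a limma adjusted p of 0.9998. Id1 and Smad6, which respond to bone morphogenetic proteins, had g 0.712 and 0.810 (unadjusted limma p = 0.107 and 0.0697). They had the smallest p among the 7 targets with a higher mean. Znrf3, with a lower mean, had g -0.661 (unadjusted limma p = 0.133). Each of these genes had a limma adjusted p of 0.9998. Of 10 tested ligands of the members' receptors, 5 had a higher mean, among them Vegfb (g 0.812), while Vegfa had g -0.232.

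Of the 4 VEGF receptor genes, 3 had a higher mean in MSXH, and 2 did after quantile normalization. Kdr, the main signalling receptor for VEGF-A, ran from -88.3 through -19.0 to 52.7 millionths in HFD and from -52.5 through 18.1 to 64.4 millionths in MSXH. In 7 of 10 MSXH mice Kdr was above the HFD median, with g 0.567 (95% interval -0.329 to 1.46, limma adjusted p = 0.9998), and g was -0.0268 after quantile normalization. Flt1, the decoy-like receptor, ran from -14.5 through -5.93 to 11.1 millionths in HFD and from -12.4 through -0.153 to 28.6 millionths in MSXH. The highest Flt1 value was that of an MSXH mouse and the groups overlapped (g 0.428, 95% interval -0.460 to 1.32, limma adjusted p = 0.9998), and another Flt1 probe set above the filter level had g -0.135. Flt4, the receptor for VEGF-C, had g 0.436. The second Flt4 probe set, also above the filter level, had g -0.00379 and r = -0.279 with the first.

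Nrp1, the VEGF and semaphorin co-receptor that hepatocytes and stellate cells can also express, ran from -2946 through -709.5 to 3249 millionths in HFD and from -3266 through -305 to 3787 millionths in MSXH. The mice spread widely in both diets and the diets coincided, with g -0.0642 (95% interval -0.941 to 0.813). Its SD of 2063 millionths was the largest among the members, and its other 3 probe sets followed the first with r = 0.948, 0.966 and 0.568.

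The angiopoietin receptor genes Tek and Tie1 and the phosphatase gene Ptprb, whose product VE-PTP dephosphorylates Tie2, the product of Tek, all had a higher mean in MSXH. Ptprb ran from -67.8 through -17.7 to 24.9 millionths in HFD and from -28.5 through 16.4 to 32.1 millionths in MSXH. All MSXH mice but 1 were above the HFD median, yet 4 HFD mice lay inside the range of those 9. The difference had g 0.976 (95% interval 0.0432 to 1.91), an unadjusted limma p of 0.0321, an adjusted p of 0.9998 and a permutation p of 0.0344. The exact rank-sum p of Ptprb was 0.0630, and a further probe set above the filter level had g 0.624 and followed the first with r = 0.635. Tek ran from -8.21 through -1.03 to 8.91 millionths in HFD and from -4.24 through 0.305 to 6.98 millionths in MSXH. The MSXH mice lay within the HFD range for Tek, with g 0.302 (95% interval -0.580 to 1.18, limma adjusted p = 0.9998). Tie1 had g 0.191.

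Eng, endoglin, a co-receptor for BMP9 and TGF-beta, ran from -9.81 through -1.83 to 8.91 millionths in HFD and from -4.56 through 0.177 to 20.6 millionths in MSXH. The MSXH mouse replicate 8 was the highest for Eng as for Rspo3, and the groups overlapped (g 0.573, 95% interval -0.323 to 1.47, limma adjusted p = 0.9998). Without that mouse g of Eng was 0.377. The second Eng probe set had g 0.779 and followed the first with r = 0.762.

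Of the 10 junction, surface and matrix genes, 9 had a higher mean in MSXH, with a median g of 0.246 and none at an unadjusted p under 0.05. That count was 10 of 10 with array medians aligned and 5 of 10 after quantile normalization. Pecam1, the adhesion molecule CD31, ran from -112 through 22.5 to 54.4 millionths in HFD and from -69.1 through 10.4 to 48.0 millionths in MSXH. The MSXH mice of Pecam1 lay inside the HFD range (g 0.0834, 95% interval -0.794 to 0.960, limma adjusted p = 0.9998), and g was -0.0425 after quantile normalization. Cdh5, VE-cadherin of endothelial junctions, ran from -42.1 through 0.663 to 32.5 millionths in HFD and from -33.1 through 4.83 to 32.4 millionths in MSXH. The groups of Cdh5 coincided, with g 0.0922 (95% interval -0.785 to 0.969, limma adjusted p = 0.9998). Plvap, the diaphragm protein of fenestrated capillaries, ran from -74.2 through 13.7 to 97.3 millionths in HFD and from -145 through -4.77 to 84.0 millionths in MSXH. It was the only gene of this role with a lower mean in MSXH (g -0.246, 95% interval -1.13 to 0.634, limma adjusted p = 0.9998), and it had a higher mean with array medians aligned. The others were the junction protein gene Esam (g 0.508), von Willebrand factor Vwf (g 0.472), the sialomucin gene Emcn (g 0.369, and -0.606 after quantile normalization), the water channel gene Aqp1 (g 0.303), the adrenomedullin co-receptor gene Ramp2 (g 0.282), Ushbp1 (g 0.210, and -0.384 after quantile normalization) and the secreted factor gene Egfl7 (g 0.0414, -0.305 after quantile normalization and -0.319 for its probe set of largest SD).

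**Figure D3:**
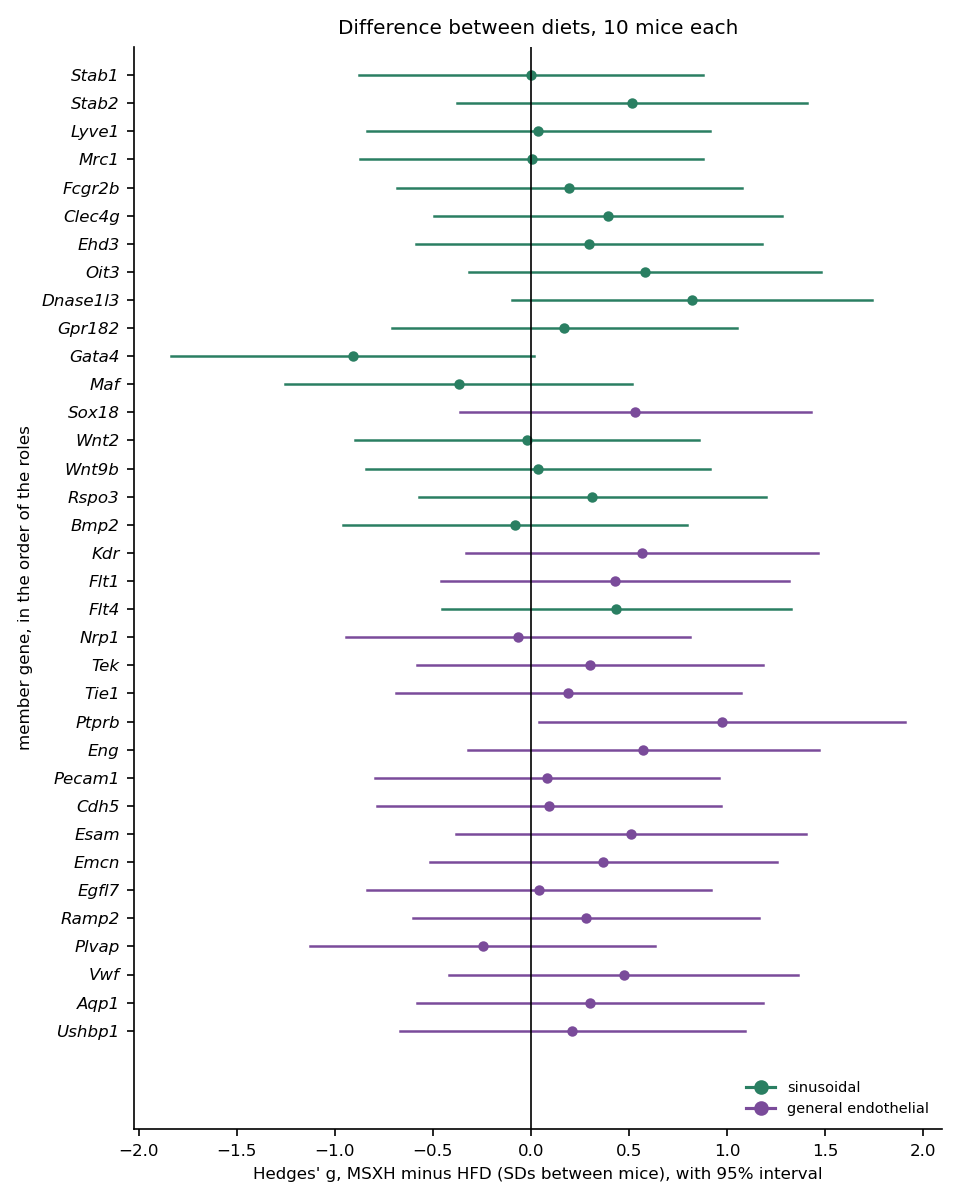
Hedges' g of MSXH minus HFD with its 95% interval for the 35 members in the order of their roles, sinusoidal members in green and general endothelial members in purple (10 mice per diet). The interval lies on 1 side of 0 for Ptprb alone, from 0.0432 to 1.91. Over all genes tested, the interval lies on 1 side of 0 for 388 of 11728.

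Set side by side, 11 of 16 tested sinusoidal members (median g 0.183) and 16 of 18 general members (median g 0.302) had a higher mean in MSXH, and the difference between these lists was not tested. With array medians aligned the counts were 15 of 16 and 17 of 18, and after quantile normalization 10 of 16 and 11 of 18. The count of 10 includes Clec4g, whose g rounded to 0.0 after quantile normalization. In a separate list of other endothelial genes, 21 of 33 had a higher mean in MSXH, with a median g of 0.137. The hematopoietic and endothelial transcription factor gene Tal1 had g 1.63 (unadjusted p = 0.00149, limma adjusted p = 0.9998) and the adhesion gene Selp had g 1.14, while Tfpi, an inhibitor of coagulation, had g -0.938. Tal1 is also expressed in red cell precursors. All 3 missed the adjusted threshold.

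Genes of other liver cells were counted in the same way. The counts of higher means in MSXH were 6 of 15 for Kupffer cells and macrophages, 8 of 15 for stellate cells and fibroblasts, 4 of 9 for hepatocytes, 1 of 2 for bile duct, 0 of 2 for lymphocytes and 2 of 3 for red blood cells. The mean of the scaled Kupffer genes ran from -0.878 to 1.28 SDs in HFD mice and from -1.82 to 1.71 SDs in MSXH mice, and that of the stellate genes from -0.764 to 0.869 and from -1.19 to 1.22 SDs. The part of other cells in the members' values was not tested.

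Co-variation over the 20 mice was weak for most pairs. The 561 pairs of tested members had a median Pearson correlation of 0.114, against 0.0120 over all pairs of genes tested. In 4.46% of member pairs r was 0.5 or more, against 5.04% of all pairs, and in 1.78% it was -0.5 or less, against 3.42%. The median was 0.139 within the sinusoidal list, 0.177 within the general list and 0.0827 between lists. With array medians aligned these 3 medians were 0.536, 0.909 and 0.742, since the array medians spanned more than the SD of most members and then enter every gene. All pairs share the 20 arrays, and their correlations are given as a description.

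**Figure D4:**
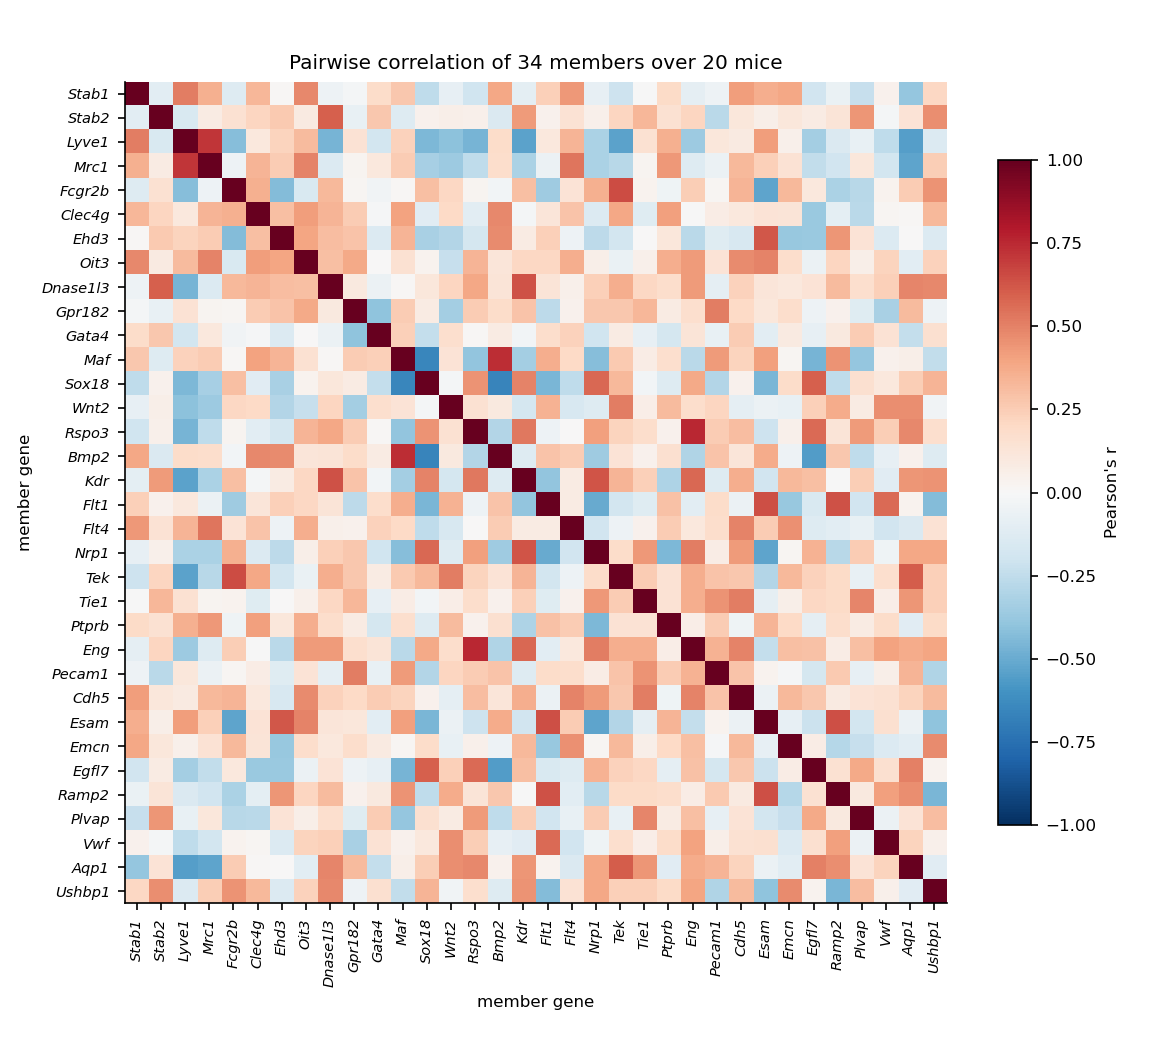
Pearson's r over 20 mice for each pair of the 34 tested members, in the order of their roles, red for positive and blue for negative. Values off the diagonal run from -0.659 (Sox18 with Bmp2) to 0.754 (Rspo3 with Eng), and no block of a role stands out as uniformly red.

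Of 24 pairs set for shared function, 0 passed adjustment by Pearson's r and 1 by Spearman's rho in permutation tests with Benjamini-Hochberg adjustment over the 24. That pair was Kdr with its co-receptor Nrp1, with r = 0.632 (permutation p = 0.00271, adjusted p = 0.0650) and rho = 0.726 (permutation adjusted p = 0.0106). Within diets r was 0.671 in HFD and 0.682 in MSXH, and it was 0.546 with the 2 most extreme mice for Kdr left out. It was -0.535 after quantile normalization, 0.358 with the probe sets of largest SD and 0.316 after the first principal component of all genes was removed. Flt1 with Nrp1 had r = -0.502 (rho = -0.471, permutation adjusted p = 0.214 and 0.244), with -0.188 in HFD and -0.778 in MSXH. That r was 0.641 with array medians aligned and 0.221 after quantile normalization, the opposite sign.

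Eng and Cdh5 had r = 0.494 and rho = 0.620 (permutation adjusted p = 0.214 and 0.0526). Stab1 and Stab2, the 2 stabilin genes, had r = -0.106 (rho = -0.0797), and the kinase gene Tek and its homologue Tie1 had r = 0.254 (rho = 0.194). Wnt2 and Rspo3, both of central vein endothelium, had r = 0.155 (rho = 0.104). The permutation adjusted p of these 3 pairs was between 0.658 and 0.935 for r and rho.

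Among all 561 pairs 0 passed adjustment by r or rho, and 67 had an unadjusted permutation p under 0.05 by r. The highest were Rspo3 with Eng (r = 0.754, rho = 0.620), Maf with Bmp2 (r = 0.734, rho = 0.779) and Lyve1 with Mrc1 (r = 0.718, rho = 0.648), each with a permutation adjusted p of 0.0598 by r. For Rspo3 with Eng r dropped to 0.441 with the 2 most extreme mice for Rspo3 left out, whereas for Maf with Bmp2 it was 0.742 and for Lyve1 with Mrc1 0.658 without their own 2 mice. The lowest were Sox18 with Bmp2 (r = -0.659) and Sox18 with Maf (r = -0.653). With the array median, r was -0.578 for Rspo3, -0.565 for Eng, 0.427 for Lyve1 and 0.447 for Mrc1. It was 0.525 for Maf, 0.244 for Bmp2 and -0.612 for Sox18. The part of array level in these pairs was not tested.

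The first principal component of the scaled members held 20.8% of their variance, and members of both lists lay at each end. It followed the mean of the general list with r = 0.624 and that of the sinusoidal list with r = -0.234. Sox18, Nrp1, Kdr, Eng and Rspo3 lay at the positive end and Lyve1, Esam, Maf, Bmp2 and Flt1 at the negative end. This component followed the array median with r = -0.716 and the first component of all genes with r = -0.734. It followed the mean of the stellate genes with r = 0.674, of red cell genes with r = 0.629 and of hepatocyte genes with r = -0.632. The part of array level and of other cell types in this pattern was not tested.

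The highest absolute correlations of Nrp1 were with genes outside the members. Its relation to 8 hormone-regulated genes is given as a description with no test, since these genes were chosen after their values were seen. They were the glucocorticoid-induced genes Tsc22d3, Fkbp5, Sgk1, Per1 and Zbtb16 and the growth hormone related genes Socs2, Cish and Bcl6. With Tsc22d3, the glucocorticoid-induced leucine zipper gene, Nrp1 had r = -0.886 and rho = -0.853 over 20 mice. The value of r was -0.880 in HFD, -0.896 in MSXH, -0.826 with the 2 most extreme mice for Nrp1 left out and -0.880 after quantile normalization. The other 3 Nrp1 probe sets gave r = -0.812, -0.837 and -0.729 with Tsc22d3. With Socs2, a feedback inhibitor induced by growth hormone, Nrp1 had r = 0.855 and rho = 0.809, with r = 0.925 in HFD and 0.807 in MSXH. With Fkbp5, a glucocorticoid-induced co-chaperone gene, it had r = -0.691 and rho = -0.714.

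The same 8 genes were set against all genes tested. An absolute r of 0.6 or more was found with Tsc22d3 in 3 of 34 members and 5.16% of all genes tested, with Fkbp5 in 4 and 9.38%, and with Sgk1 in 5 and 3.67%. It was found with Per1 in 5 of 34 members and 4.55% of genes, and with Zbtb16 in 2 and 6.03%. For Socs2 it was 2 of 34 members and 2.98% of genes, for Cish 2 and 2.51%, and for Bcl6 1 and 1.04%.

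Maf had r = 0.793 and rho = 0.826 with Sgk1, a kinase gene induced by glucocorticoids, and Bmp2 had r = 0.724 and rho = 0.687. Sox18 had r = -0.794 and rho = -0.744 with Sgk1. The other 4 Maf probe sets above the filter level gave r = 0.758, 0.726, 0.534 and 0.00644, and the last of these is near 0. After quantile normalization r with Sgk1 was 0.388 for Maf, 0.236 for Bmp2 and -0.103 for Sox18, and with array medians aligned it was 0.454, 0.195 and -0.759. The r of Nrp1 with Socs2 was 0.779 after quantile normalization. Within diets, r with Sgk1 was 0.767 and 0.829 for Maf and 0.740 and 0.721 for Bmp2, in HFD and MSXH in that order.

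**Figure D5:**
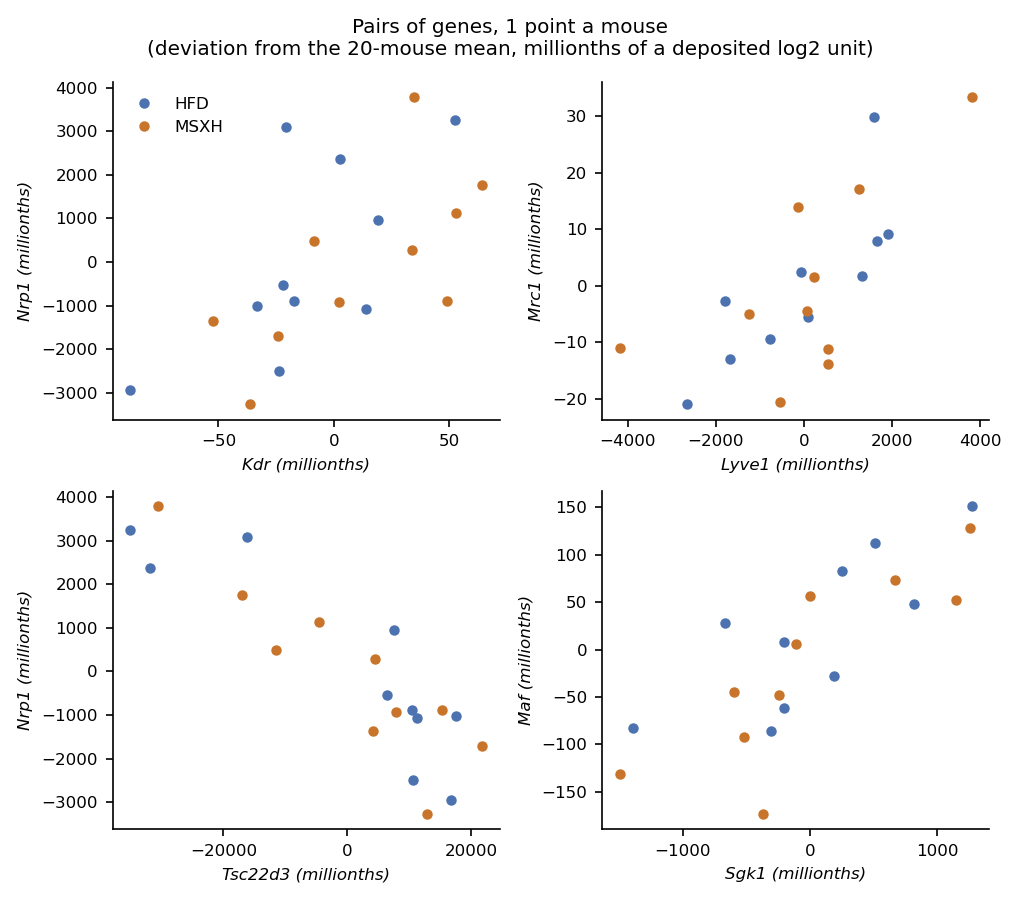
Deviation from the 20-mouse mean in millionths of a deposited log2 unit for Nrp1 against Kdr (r = 0.632), Mrc1 against Lyve1 (r = 0.718), Nrp1 against Tsc22d3 (r = -0.886) and Maf against Sgk1 (r = 0.793); each point is a mouse, HFD in blue and MSXH in orange. Both diets lie along the same trend in each panel.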

How the data were processed

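Liver RNA of 20 mice was measured on 1 Affymetrix array each. The authors deposited log2 expression values per probe set; how they were normalized is not given in the sources used here, and their spread between arrays is far below that of usual log2 data. Of 45101 probe sets 64 were controls, 34945 had 1 gene symbol, 932 several and 9160 none in the array annotation. The brightest probe set on average stood for a gene, and genes below the median level of all probe sets, 6.51, were left out. The diets were tested against each other in limma 3.58.1 (R 4.3.3) on 11728 genes, with lmFit and eBayes and p-values adjusted by Benjamini-Hochberg, checked on simulated data. Correlations used 100000 permutations (scipy 1.17.1). The members and lists were chosen with earlier results of these data known. All members were named; full values were given for preset anchor genes and for the 3 lowest p-values of each direction, and of each other list up to 2 genes per direction were eligible. The hormone-regulated genes were chosen after the values were seen and were not tested. Array number limits the precision. Alternatives covered scaling, filter, probe set, variance model, rank and permutation tests, a replicate block and each array left out. The other diet groups of the design were not analysed here.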

Additional observations from a re-analysis of the deposited data

Results flagged for a closer look

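In 70 groups of 10 mice (35 members in each diet), 3 values stood far from the rest of their group by Dixon's test, where chance gives about 3.5, or 1 in 20 groups. Sox18 was high in HFD replicate 5, at 85.4 millionths, with a gap of 0.498 of the group's range. Egfl7 was high in the same mouse, at 19.9 millionths, with a gap of 0.499 of the range. Ptprb was low in MSXH replicate 5, at -28.5 millionths, with a gap of 0.519 of the range. Without that mouse g of Ptprb was 1.24, the highest value with any 1 array left out. The lowest was 0.865, without HFD replicate 3.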

How the results depend on the processing

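None of the 11 alternative fits (limma, the rank-sum test and a regression with the component removed) and none of the 20 limma fits without 1 array called a gene at an adjusted p of 0.05, and without any 1 array the smallest adjusted p of a member was 0.958 (without MSXH replicate 10). The count of genes at an unadjusted p under 0.05 was 46 with array medians aligned, 146 after quantile normalization, 780 with no filter and 197 with the filter at the 75th percentile, against 425. Members at that level numbered 0 with array medians aligned, after quantile normalization and in the rank-sum test. They numbered 1 with the filter at the 75th percentile, the probe set of largest SD, the mean of all probe sets, array weights or the first all-gene component removed, and 0 to 2 without 1 array. The members higher in MSXH ranged from 23 to 29 of 34 without 1 array, and 23 of 34 members kept their sign without any 1 array. The replicate block left 27 of 34 members higher in MSXH and 2 at an unadjusted p under 0.05. Same-numbered mice of the 2 diets had deviations that correlated with r from -0.133 to 0.369 (10 pairs). The mean r was 0.0530 for these pairs and -0.00601 for pairs with different numbers. The labels do not say whether the numbers pair the mice, and these values cannot decide it.

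Preset pairs past the threshold numbered 1 by rho, 1 on deviations from group means, 2 after quantile normalization and 19 with array medians aligned, and median correlations with array medians aligned were 0.536, 0.909 and 0.742 (sinusoidal, general, between). With array medians aligned, r turned positive for Kdr with Flt1 (0.901), Flt1 with Nrp1 (0.641), Stab1 with Stab2 (0.535), Mrc1 with Fcgr2b (0.938), Wnt9b with Rspo3 (0.877), Cdh5 with Esam (0.940) and Plvap with Vwf (0.727). After quantile normalization Oit3 with Dnase1l3 turned to -0.633. The shift subtracts the median of an array from every gene on it. The cause of the turn under quantile normalization was not tested. Removing the component was chosen after seeing the data.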

Other observations

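Over all 11728 genes, those closest to Nrp1 across the 20 mice were chosen by r alone, so no test applies. On the positive side they were Gm2788 (r = 0.897), the mitochondrial carrier gene Slc25a30 (r = 0.888), Helz2 (r = 0.882), Socs2 and Ugcg (r = 0.852), which makes glucosylceramide. On the negative side they were Ppp1r3b (r = -0.902), a glycogen-targeting subunit of protein phosphatase 1, Tcim (r = -0.896), Tsc22d3, Pfkfb2 (r = -0.882), a regulator of glycolysis, and the amino acid transporter gene Slc16a10 (r = -0.861). After quantile normalization these 10 values kept their sign except for Helz2 (r = -0.126).

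The genes closest to Lyve1 on the positive side were the oncostatin M receptor gene Osmr (r = 0.811), Adgrg3 (r = 0.769), Pla2g7 (r = 0.758), Ralgapb (r = 0.746) and the chemokine gene Ccl6 (r = 0.744). After quantile normalization Pla2g7 and Ccl6, with SDs of 989 and 555 millionths, kept r = 0.760 and 0.614. Osmr, Adgrg3 and Ralgapb, with SDs of 105, 31.1 and 16.3 millionths, turned to -0.269, -0.510 and -0.202. Macrophages express Pla2g7 and Ccl6, and the part of these cells in the correlations was not tested.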
